A study of Mus musculus with 15 samples.

Results

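The genes described here encode the carriers that move nucleosides and free nucleobases across the membranes of intestinal cells. The set holds 7 of the 17752 genes listed in the ileum of any mouse, taken by gene symbol, and all 7 were among the 14386 genes abundant enough to be tested. Slc28a2 and Slc23a4 are in the set because their mRNA was lower in mice given medium mDP PAC than in mice given water, so their values in the group comparisons are given as a description without a test. The other 5, Slc28a1, Slc28a3, Slc29a1, Slc29a2 and Slc29a3, are the paralogs of Slc28a2 and the equilibrative carriers. They are in the set as members of these families, and the set was drawn up with earlier results of these data known.

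The study asked how the degree of polymerization of proanthocyanidins (PAC, plant polyphenols made of flavan-3-ol units) shapes the response of the healthy gut. Female C57BL/6 mice (C57BL/6JOlaHsd in the methods), 8 weeks old by the labels, ate a purified control diet and were gavaged every 2 days for 10 days with water alone or with a grape PAC fraction of low or of medium mDP, where mDP is the mean degree of polymerization. Each group held 5 mice, the dose of either fraction was 200 mg/kg, and the fraction called medium mDP in the methods is labelled high molecular weight in the deposited records. Ileal RNA of every mouse was sequenced, and the sum of expected counts lay between 15963086 and 17903886 per mouse.

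Nucleic acids of food and shed cells are digested in the gut lumen to nucleotides, nucleosides and bases. The SLC28 family (concentrative nucleoside transporters) uses the sodium gradient to pull nucleosides into the enterocyte across its apical membrane, and the SLC29 family (equilibrative nucleoside transporters) lets them pass down their gradient, mainly at the basolateral membrane. Free bases such as uracil, hypoxanthine and guanine are taken up in rodents by the sodium-dependent nucleobase transporter encoded by Slc23a4, a relative of the ascorbate transporters.

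The tissue carried the markers of ileum and of enterocytes in every group. The ileal bile acid binding protein Fabp6 was at 5679 ± 1318 FPKM (SD, n = 5) and the ileal bile acid transporter Slc10a2 at 224 ± 102 FPKM in water mice, where FPKM is fragments scaled to the length of the transcript and the number mapped. Markers of B cells of lymphoid tissue varied widely between the pieces, with a summed level from 5.85 to 239 FPKM over 9 genes. Since the tissue is bulk, fewer cells of a type and less RNA per cell cannot be told apart in any value below.

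In water mice Slc28a2 was by far the most abundant of the 7 mRNAs, at 53.2 FPKM, above 91.6% of all genes listed in that group. Slc23a4 at 12.3 FPKM and Slc29a1 at 12.1 FPKM came next and overlapped between mice. Slc28a3 at 5.11 FPKM, Slc29a3 at 4.77 FPKM and Slc28a1 at 3.09 FPKM also overlapped as neighbours in this order, and Slc29a2 was the lowest at 0.966 FPKM. The order was different in mice given PAC. In both PAC groups Slc29a1 stood above Slc23a4 with no overlap between mice, and Slc29a3 stood above Slc28a3 on average with overlap. The place of Slc23a4 restates in part its choice by lower values with medium mDP PAC.

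**Figure D1:**
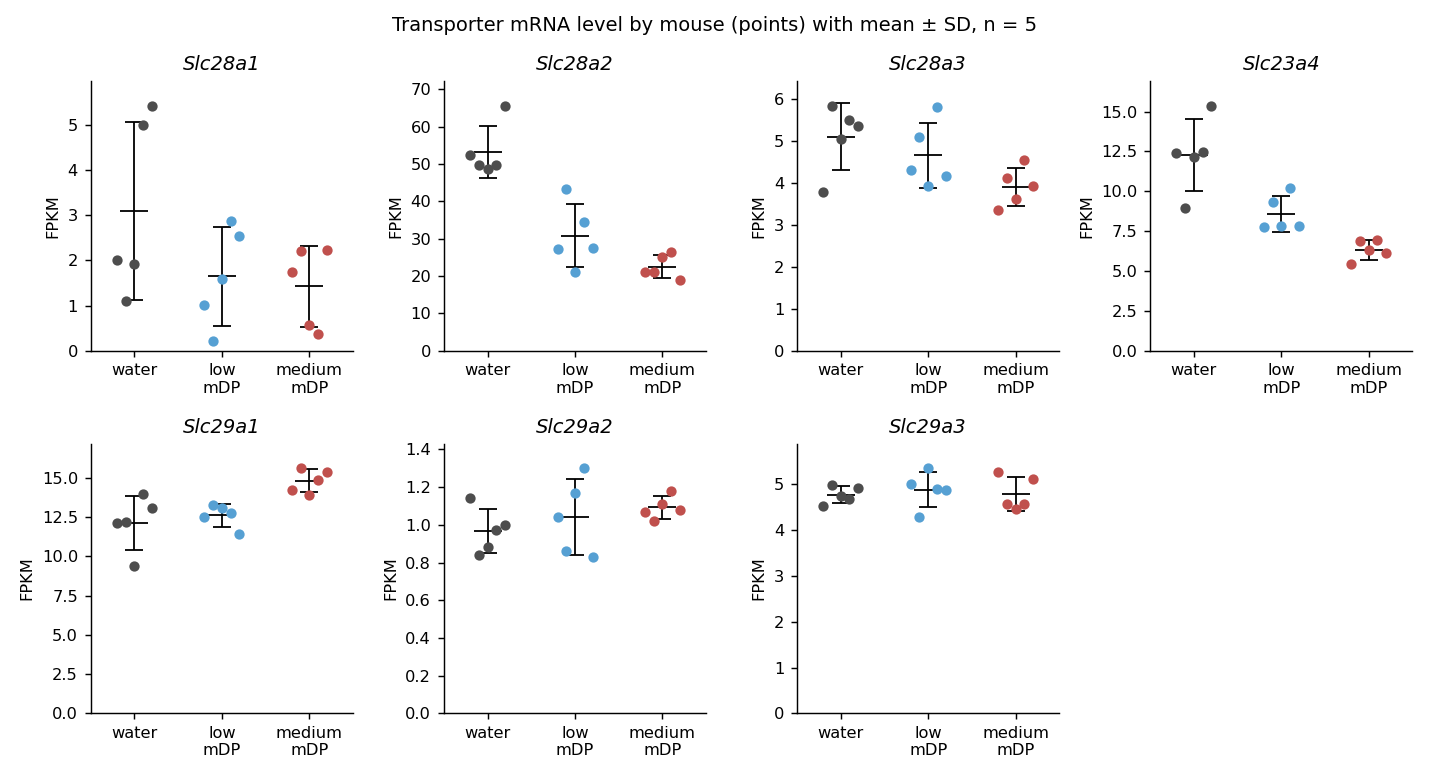
FPKM of each of the 7 transporter genes (vertical axes, starting at 0) in each mouse (points) of the water, low mDP PAC and medium mDP PAC groups, with the mean and SD of 5 mice as bars. All PAC mice lie below all water mice for Slc28a2, the medium mDP mice lie below all others for Slc23a4 and above all low mDP mice for Slc29a1, and the groups overlap for the remaining genes.

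Slc28a2 encodes the purine-preferring concentrative transporter CNT2, which carries adenosine, inosine, guanosine and uridine, and lies on chromosome 2 (122426477 to 122461137, plus strand, GRCm38). Its level was 52.34, 49.69, 48.69, 49.77 and 65.65 FPKM in the 5 water mice. It was 27.35, 43.39, 21.14, 34.44 and 27.59 FPKM with low mDP PAC and 21.13, 20.98, 25.08, 26.44 and 18.91 FPKM with medium mDP PAC. Every PAC mouse lay below every water mouse, and the PAC groups overlapped, with 3 of 5 medium mDP mice below the lowest low mDP mouse.

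The group means of Slc28a2 were 53.2 ± 7.07 FPKM in water mice, 30.8 ± 8.48 FPKM in low mDP mice and 22.5 ± 3.13 FPKM in medium mDP mice (SD, n = 5). Relative to water this is a log2 difference of -1.34 with medium mDP PAC (SE 0.16, 95% interval -1.68 to -0.999) and -0.83 with low mDP PAC (SE 0.16, interval -1.17 to -0.50), in an edgeR model of the counts of all 15 mice. Medium mDP PAC lay -0.50 from low mDP PAC (interval -0.84 to -0.17), and -0.61 to -0.33 from it without 1 mouse each. The comparisons with water share the same 5 water mice. Both PAC groups lay wholly below water for 9 of 14386 genes, 0.0626% of those tested, a share from which nothing is read for Slc28a2, since it was chosen by its medium mDP and water values.

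The share of Slc28a2 in its family and its ratio to Slc29a1 restate the same values. Of the summed FPKM of Slc28a1, Slc28a2 and Slc28a3, it took 86.7% in water mice, 82.5% in low mDP mice and 80.6% in medium mDP mice, averaged over mice, with overlap between the groups. Its level divided by that of Slc29a1 in the same mouse was 3.57 to 5.20 in water mice, 1.62 to 3.26 in low mDP mice and 1.23 to 1.80 in medium mDP mice. The mouse genome holds a close copy of Slc28a2 on the same chromosome, Slc28a2b, listed as Gm14085 (122484941 to 122528040, plus strand), with 94.8% of aligned coding bases identical. It was nearly absent, at 0 to 0.44 FPKM and at most 27.2 expected counts in any mouse, against 971 to 3290 expected counts for Slc28a2. Since 20.6% of the 100-base windows of the Slc28a2 transcript occur in the copy as well, the split of reads between them rests on the counting program.

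Slc23a4 encodes SNBT1, the sodium-dependent nucleobase transporter, and lies on chromosome 6 (34945278 to 34988404, minus strand, GRCm38). Its level was 12.38, 8.97, 12.16, 12.48 and 15.38 FPKM in water mice and 7.76, 9.32, 7.81, 10.18 and 7.82 FPKM in low mDP mice. In medium mDP mice it was 5.43, 6.89, 6.29, 6.94 and 6.11 FPKM. The medium mDP mice lay below all mice of both other groups, and the low mDP mice overlapped with water because of water replicate 2, with 3 of 5 below it.

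The group means of Slc23a4 were 12.3 ± 2.27, 8.58 ± 1.11 and 6.33 ± 0.62 FPKM in the water, low mDP and medium mDP groups. The log2 difference from water was -1.05 with medium mDP PAC (SE 0.13, interval -1.32 to -0.77) and -0.57 with low mDP PAC (SE 0.13, interval -0.84 to -0.30). Between the PAC groups it was -0.48 (interval -0.76 to -0.20). For Slc28a2 and Slc23a4 alike the low mDP mean lay between those of water and medium mDP PAC. Choosing genes by medium mDP PAC against water favours this order. The median log2 differences of enterocyte markers and of other apical carriers, given below, had the same order.

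Slc28a2 and Slc23a4 were chosen as the 2 genes of 14386 (0.0139%) with an adjusted p under 0.05 in edgeR for medium mDP PAC against water, so that count says nothing further of them. The 4 genes just outside this threshold, which are not transporters of this set, were Sgpl1, Ptdss1, Hoxc9 and S100g, with log2 differences of -0.65, -0.43, 1.44 and 2.79. None of the 5 paralogs was called. Slc28a2 and Slc23a4 were the members whose medium mDP mice all lay below the water mice, as was the case for 0.646% of genes, a separation that their choice nearly fixed. Of the 5 paralogs 3 log2 differences from water were below 0 (Slc28a1, Slc28a3 and Slc29a3), as were 49.5% over all genes, and at an unadjusted p under 0.05 edgeR had 14.8%. In low mDP PAC against water none of the 5 paralogs was called by edgeR, where 0 of 14386 genes were called (0%), 520 had an unadjusted p under 0.05 (3.61%) and DESeq2 called 2. In that comparison Slc28a2 was the member with all low mDP mice below water, against 0.111% of genes, with the same water mice as in the comparison that chose it. Here 3 of the 5 log2 differences of paralogs were below 0, as were 54.5% over all genes.

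The stretches of genome just upstream of the annotated starts of Slc28a2 and Slc23a4 are printed because these are the members whose levels were lower together. They come from RefSeq's table for GRCm38.p6 and read in the direction of transcription, with capitals marking matches on either strand to a motif of GATA factors spelled AGATAA, the piece CAAAG found in HNF4 sites, or the CDX motif TTTATG, all families of factors active in gut epithelium. The Slc28a2 stretch ends before the first RefSeq start of the gene, and the Slc23a4 stretch lies before the start of the shorter GENCODE transcript and within an intron of the longer transcript.
Slc28a2, chr2:122426185-122426356, plus strand: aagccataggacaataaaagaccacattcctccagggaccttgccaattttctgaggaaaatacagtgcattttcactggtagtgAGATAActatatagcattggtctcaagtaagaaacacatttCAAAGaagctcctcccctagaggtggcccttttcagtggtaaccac
Slc23a4, chr6:34978000-34978249, minus strand: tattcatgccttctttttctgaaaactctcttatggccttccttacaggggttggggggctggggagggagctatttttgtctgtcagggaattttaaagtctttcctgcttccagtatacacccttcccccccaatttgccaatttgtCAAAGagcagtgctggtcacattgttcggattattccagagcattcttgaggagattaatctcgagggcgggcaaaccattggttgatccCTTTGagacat
CAAAG occurs in both stretches, and AGATAA in that of Slc28a2. The matches are not limited to the pair, since CAAAG also occurs upstream of starts of Slc28a1, Slc28a3, Slc29a1 and Slc29a3, and 1 of the 8 listed starts of Slc29a1 has all 3 motifs. The full 250 upstream bases in the table for Slc28a2 also hold TTTATG on the other strand, past the end of the 172 bases printed. Of 32851 RefSeq promoters, AGATAA occurs in the full 250 upstream bases of 9.99%, CAAAG in 48.6% and TTTATG in 10.8%. A match is a run of letters and does not show that a factor binds there.

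Slc28a1 encodes CNT1, the pyrimidine-preferring concentrative transporter (chromosome 7, 81114799 to 81170416, plus strand). It was low and the most variable of the 7, at 2.00, 1.11, 1.92, 4.99 and 5.43 FPKM with water. It was 1.01, 0.22, 1.59, 2.87 and 2.55 FPKM with low mDP PAC and 1.74, 2.2, 0.57, 0.38 and 2.23 FPKM with medium mDP PAC. Water replicates 4 and 5 stood above all PAC mice, and the other water mice overlapped with both PAC groups. Its mean was 46.1% of water with medium mDP PAC and 53.3% with low mDP PAC. The log2 difference of -1.20 with medium mDP PAC (interval -2.45 to 0.049) did not pass the test (adjusted p = 0.354 by edgeR, exact permutation p = 0.135). Nor did that of -0.96 with low mDP PAC (adjusted p = 0.976 by edgeR, exact permutation p = 0.222).

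The level of Slc28a1 went with that of genes typical of the upper small intestine. The mean log2 level of 8 such genes (Gata4, Fabp1, Lct, Rbp2, Slc2a2, Onecut2, Apoa1 and Cyp3a11) averaged 0.54 in water mice, -0.20 in low mDP mice and -0.34 in medium mDP mice, relative to the mean of all mice. Of the 7 tested, 6 had a log2 difference below 0 with medium mDP PAC, Fabp1 was at 0.46, and none was called. With group means removed, Slc28a1 and this score had a Pearson r of 0.879 over 15 mice (permutation p = 0.00018, adjusted p = 0.00234 over 26 relations) and a Spearman rho of 0.843 (permutation p = 0.00032). With the 2 mice of most extreme score left out, r was 0.806 (permutation p = 0.00387, adjusted p = 0.0503). With the ascorbate transporter Slc23a1 the relation of Slc28a1 had r = 0.957 (permutation p = 2e-05, adjusted p = 0.00052) and rho = 0.925 (permutation p = 3e-05), and r = 0.953 without 2 mice (permutation p = 0.00028). These relations were computed after the values had been seen. Among the 26, those of the other paralogs did not pass adjustment, and the strongest, of Slc29a1 with smooth muscle genes, had r = 0.71 (permutation p = 0.0138, adjusted p = 0.12), rho = 0.725 (permutation p = 0.00753) and r = 0.348 without 2 mice. The part of the upper-intestine genes in the group means of Slc28a1 was not tested.

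**Figure D2:**
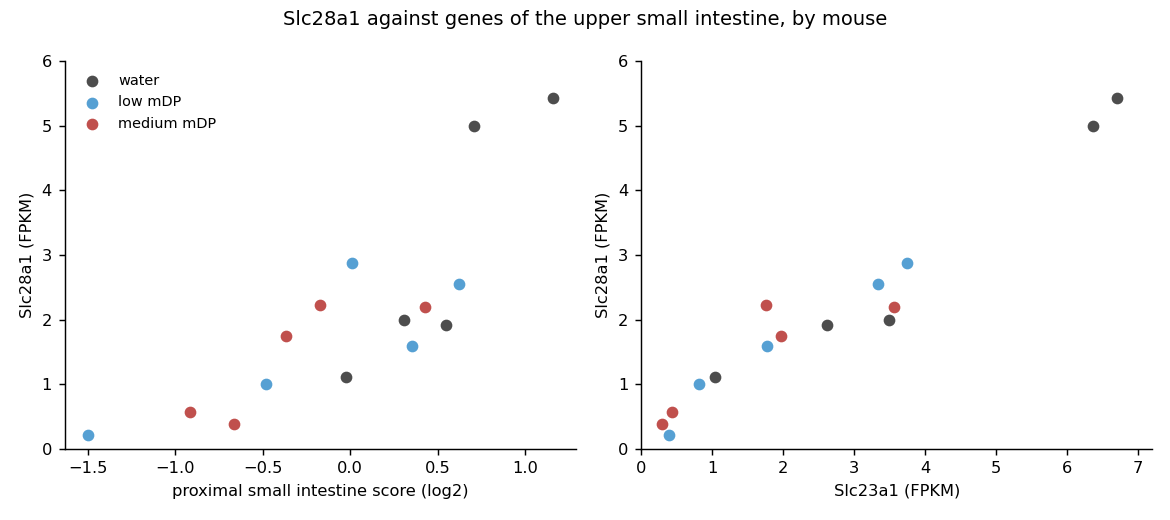
Slc28a1 in FPKM (vertical axes) against the proximal small intestine score, a mean log2 level of 8 genes relative to all mice (left), and against Slc23a1 in FPKM (right), with 1 point per mouse coloured by group. Points tend upward from left to right in both panels, with exceptions among single mice, and r is 0.879 on the left and 0.957 on the right once group means are removed.

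Slc28a3 encodes CNT3, the concentrative transporter that accepts both purine and pyrimidine nucleosides (chromosome 13, 58545399 to 58610877, minus strand). Its level was 3.78, 5.85, 5.04, 5.51 and 5.36 FPKM with water and 4.32, 5.09, 3.92, 5.81 and 4.17 FPKM with low mDP PAC. It was 3.36, 4.12, 3.61, 4.54 and 3.92 FPKM with medium mDP PAC. Water replicate 1 lay among the medium mDP mice and the other 4 water mice lay above all of them. The log2 difference between medium mDP PAC and water was -0.48 (SE 0.13, interval -0.76 to -0.20), with an adjusted p of 0.193 by edgeR and an exact permutation p of 0.0317. With low mDP PAC it was -0.18 (adjusted p = 0.976 by edgeR, exact permutation p = 0.429), and between the PAC groups -0.29 (adjusted p = 0.896 by edgeR, exact permutation p = 0.103). At an unadjusted p under 0.05, where Slc28a3 lies, 10.4% of all genes were lower with medium mDP PAC.

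Neither Slc28a1 nor Slc28a3 passed the test in any comparison. The coding sequences of the 3 concentrative transporters share 63.0% to 71.6% of aligned bases, and no 100-base window of the Slc28a1 transcript occurs in another gene.

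Slc29a1 encodes ENT1, the broadly expressed equilibrative transporter (chromosome 17, 45585200 to 45599606, minus strand). Its level was 12.13, 12.19, 9.36, 13.95 and 13.08 FPKM with water and 12.48, 13.29, 13.08, 12.74 and 11.45 FPKM with low mDP PAC. With medium mDP PAC it was 14.24, 15.61, 13.90, 14.88 and 15.38 FPKM. The medium mDP mice lay above all low mDP mice, and 4 of 5 lay above the highest water mouse. In medium mDP PAC against low mDP PAC the first group was wholly above the other for 0.646% of genes, and 0 of 14386 genes were called by edgeR (559 at an unadjusted p under 0.05, 3.89%, and 0 by DESeq2). Slc23a4 was the member with all medium mDP mice below the low mDP mice, as were 0.0904% of genes, a comparison that shares its medium mDP mice with the one that chose the gene.

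The mean of Slc29a1 was 12.1 ± 1.72 FPKM in water mice, 12.6 ± 0.72 FPKM in low mDP mice and 14.8 ± 0.73 FPKM in medium mDP mice. The log2 difference in counts between medium mDP PAC and water was 0.19 (SE 0.09, interval -0.0045 to 0.38), which did not pass the test (adjusted p = 0.35 by edgeR). On the FPKM scale, where the median over all genes was 0.09, it was 0.29, with an exact permutation p of 0.0159. Between the PAC groups the difference was 0.19 by edgeR (adjusted p = 0.896). On the FPKM scale, where the median over all genes was 0.04, it was 0.23. Its exact permutation p was 0.00794, the smallest that 5 against 5 mice can give, and was not adjusted for the number of tests. Low mDP PAC and water differed by 0.00 (interval -0.19 to 0.20, adjusted p = 0.998 by edgeR). An antisense gene, Gm17080, overlaps 4.16% of the 100-base windows of the Slc29a1 transcript, and whether strand was used in counting is not given in the sources used here.

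Slc29a2, which encodes the nucleobase-accepting equilibrative transporter ENT2 (chromosome 19, 5023860 to 5031972, plus strand), was near the lower end of what was tested. It ranged from 0.84 to 1.14 FPKM in water mice, 0.83 to 1.30 FPKM in low mDP mice and 1.02 to 1.18 FPKM in medium mDP mice, resting on 33 to 51 expected counts per mouse. The groups overlapped, and the log2 difference of medium mDP PAC from water was 0.08 (interval -0.24 to 0.40, adjusted p = 0.818 by edgeR).

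Slc29a3 encodes ENT3, the equilibrative transporter of lysosomes (chromosome 10, 60712072 to 60752794, minus strand), and lay at about the same level in the 3 groups. Its mean was 4.77 ± 0.18 FPKM in water mice, 4.89 ± 0.38 FPKM in low mDP mice and 4.79 ± 0.37 FPKM in medium mDP mice. The log2 difference of medium mDP PAC from water was -0.09 by edgeR (interval -0.23 to 0.05, adjusted p = 0.508) and 0.00 on the FPKM scale (exact permutation p = 0.937). A difference larger than 0.23 in size lies outside that interval.

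**Figure D3:**
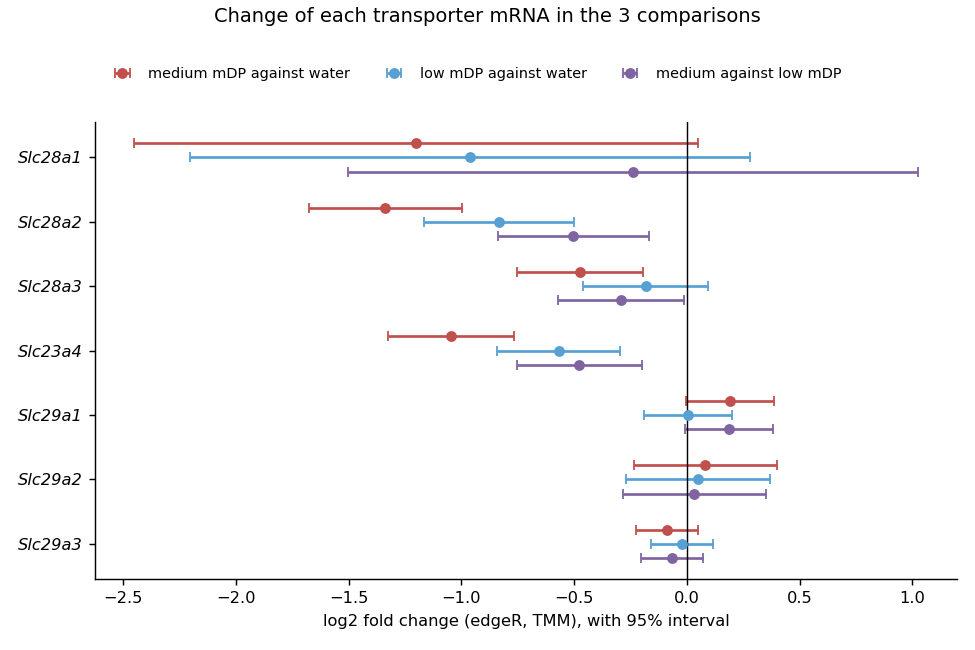
log2 fold change of each transporter (points, horizontal axis) with its 95% interval (bars) from the edgeR model of 15 mice, for each PAC fraction relative to water and for the medium relative to the low mDP fraction. Slc28a2 and Slc23a4, which were chosen by the comparison of medium mDP PAC with water, are drawn as a description. The interval of Slc28a3 lies below 0 in the comparisons of medium mDP PAC, and those of Slc28a1, Slc29a1, Slc29a2 and Slc29a3 include 0.

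No other gene of the Slc23 family was called by edgeR in any comparison. Slc23a1, the apical ascorbate transporter, was at 4.04 ± 2.44 FPKM in water mice, 2.01 ± 1.48 FPKM in low mDP mice and 1.60 ± 1.33 FPKM in medium mDP mice, a log2 difference of -1.42 for medium mDP PAC (SE 0.66, adjusted p = 0.333 by edgeR, exact permutation p = 0.103). Slc23a2, the more widely expressed ascorbate transporter, was at 10.1 ± 0.73, 10.3 ± 1.13 and 10.3 ± 1.36 FPKM, and Slc23a3 was under 1 FPKM on average in each group. Their adjusted p values were far from the threshold (adjusted p = 0.744 and 0.756 by edgeR for medium mDP PAC). Of 5 further carriers of nucleosides, bases or nucleotides, 2 had a log2 difference above 0 and 3 below it with medium mDP PAC, and none was called. The 3 of lowest p were the nucleotide exporter Abcc5 (log2 difference -0.16, adjusted p = 0.549 by edgeR), Slc29a4, the member of the equilibrative family that mainly carries monoamines (0.17, adjusted p = 0.595), and the nucleotide exporter Abcc4 (0.10, adjusted p = 0.676).

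Genes that supply these carriers with substrate, or use it, were compared in the same way, and none was called. Of 12 enzymes of nucleotide digestion, 3 had a log2 difference above 0 and 9 below it with medium mDP PAC, with a median of -0.15 against 0.00 over all genes tested. The lowest p in this list belonged to Nt5e, the ectonucleotidase CD73 that releases adenosine, at 15.4 ± 3.98, 11.5 ± 1.81 and 9.97 ± 1.29 FPKM in the water, low mDP and medium mDP groups (log2 difference -0.72, adjusted p = 0.133 by edgeR). It was followed by Entpd8 (-0.36, adjusted p = 0.185) and Enpp3 (-0.68, adjusted p = 0.218), both of which hydrolyse extracellular nucleotides. Of 20 intracellular enzymes of nucleosides and bases, 9 had a log2 difference above 0 and 11 below it, and the median was -0.01. The 3 of lowest p were Ada, Gda and Xdh. Ada, adenosine deaminase, was at 75.6 ± 23.6, 53.7 ± 11 and 43.6 ± 9.40 FPKM (-0.89, adjusted p = 0.142 by edgeR), the guanine deaminase Gda differed by -0.82 (adjusted p = 0.19) and xanthine dehydrogenase Xdh by -0.54 (adjusted p = 0.268). The largest difference upward in this list was 0.94, of the urate oxidase Uox. Of the 4 adenosine receptors, 2 were abundant enough to be tested, Adora1 and Adora2a, and neither was called (log2 differences 0.41 and 0.24).

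Carriers of other nutrients at the apical membrane were examined as well. By edgeR's log2 difference 14 of 16 such genes were below 0 and 2 above it in the medium mDP group, the median was -0.35, and none was called. The 3 with the lowest p were the sodium-proton exchanger Slc9a3 (-1.36, adjusted p = 0.18 by edgeR), the sodium-glucose cotransporter Slc5a1 (-0.59, adjusted p = 0.202) and the amino acid transporter subunit Slc7a9 (-0.34, adjusted p = 0.247). With low mDP PAC 13 of the 16 were below 0 and 3 above it, with a median of -0.22.

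**Figure D4:**
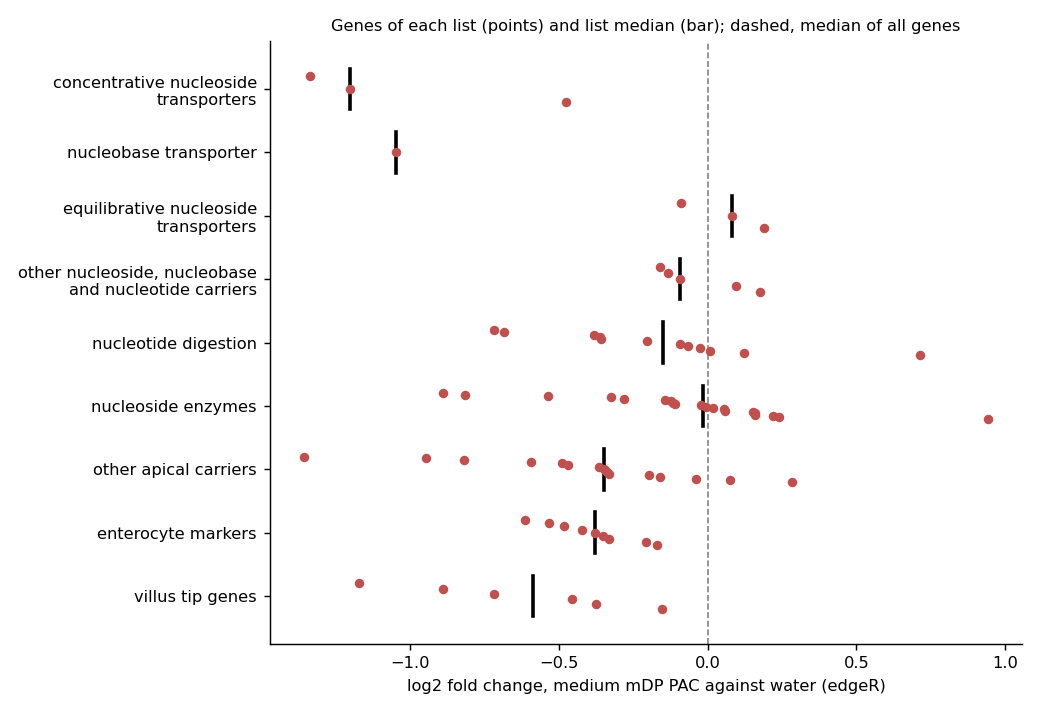
log2 fold change of medium mDP PAC against water (horizontal axis, edgeR) for the genes of each list (points, 1 row per list), with the median of the list (black bar) and of all genes tested (dashed line). Slc28a2 lies at -1.34 and Slc23a4 at -1.05, the apical carrier Slc9a3 is the lowest point of the lists drawn at -1.36, and the equilibrative transporters lie between -0.09 and 0.19.

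Markers of enterocytes had negative log2 differences from water as well, without any being called. By edgeR all 9 of 9 (Vil1, Fabp2, Sis, Anpep, Cdh17, Epcam, Krt20, Mep1a and Dpp4) were below 0 with medium mDP PAC, with a median of -0.38, and with low mDP PAC, with a median of -0.23. None was at 0 FPKM in any group. Their summed level was 11920 to 14890 FPKM in water, 9955 to 13470 FPKM in low mDP and 7389 to 12540 FPKM in medium mDP mice. The lowest value was that of medium mDP replicate 3. With medium mDP PAC the log2 differences of villus tip genes were below 0 in 6 of 6 (median -0.59) and those of crypt genes above 0 in 6 of 6 (median 0.21). They were above 0 for 6 of 6 markers of smooth muscle (median 0.44), 6 of 6 of enteric neurons and glia (median 0.58) and 5 of 5 of mesothelium (median 0.90), with none called. Their part in the transporter values was not tested.

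Each transporter was then set against the enterocyte markers of its own mouse, a measure added after the data were seen. The log2 level of Slc28a2 less the enterocyte score differed from water by -0.91 with medium mDP PAC, against -1.24 before the score was taken off, and by -0.65 with low mDP PAC, where 4 of 5 mice lay below the water range. The medium mDP mice were then at 4.42, 4.36, 5.43, 4.76 and 4.28 on this log2 scale, with replicate 3 within the water range of 5.31 to 6.02 and the other 4 below it, and without replicate 3 the difference was -1.11. For Slc23a4 the difference from water was -0.60 with medium mDP PAC, or -0.76 without replicate 3, and -0.33 with low mDP PAC. The mean score was 0.16 in water mice and -0.16 in medium mDP mice, so taking it off raises the difference of every gene by the same amount, and no test is given in this measure. Slc28a3 then differed from water by -0.04 with medium mDP PAC, or -0.17 without replicate 3. For the equilibrative transporters the differences were 0.62 for Slc29a1, 0.49 for Slc29a2 and 0.33 for Slc29a3, or 0.49, 0.33 and 0.20 without replicate 3. The part of enterocyte content in the unadjusted differences was not tested beyond these values.

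**Figure D5:**
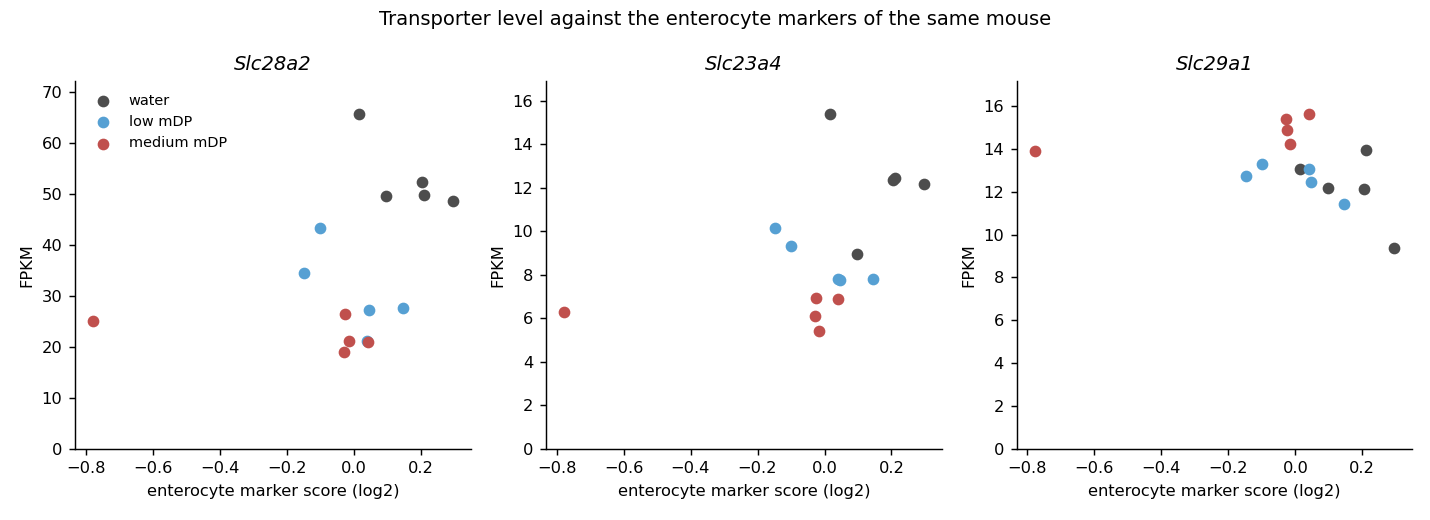
FPKM of Slc28a2, Slc23a4 and Slc29a1 (vertical axes, starting at 0) against the enterocyte marker score (horizontal axes, mean log2 level of 9 markers relative to all mice), with 1 point per mouse coloured by group. The medium mDP mice other than replicate 3 have scores near 0 and lie below the water mice for Slc28a2 and Slc23a4, and replicate 3 stands apart at a score of -0.78.

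Within groups, Slc28a2 and Slc23a4 varied together only in part. With group means removed, their Pearson r over 15 mice was 0.594 (permutation p = 0.0188) and their Spearman rho 0.668 (permutation p = 0.0152), which did not pass after adjustment over the 11 relations computed (adjusted p = 0.206). With the 2 mice of most extreme level left out, r was 0.652 (permutation p = 0.0693). Neither gene had a relation that passed adjustment with the scores of enterocyte, upper small intestine, distal ileum, villus tip or smooth muscle genes. For Slc28a2 these ran from -0.511 to 0.087. The -0.511, with upper small intestine genes, was -0.144 without low mDP replicate 2, -0.716 without water replicate 5 and -0.166 without the 2 mice of most extreme score, and its r of -0.441 with the enterocyte score had an adjusted p of 0.258 (permutation). For Slc23a4 the highest was 0.541 with villus tip genes (adjusted p = 0.389, permutation), a list that includes Ada and Nt5e, and it was 0.199 without water replicate 2 and -0.0921 without the 2 mice of most extreme score.

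Among 12428 genes with a mean of at least 1 FPKM, those most like Slc28a2 within groups over 15 mice were Kifc1 (r = 0.901), Cdca5 (r = 0.867), Ndc80 (r = 0.821), Shcbp1 (r = 0.81) and Bora (r = 0.799). These genes act in mitosis, and their group means ran the other way, higher with PAC than with water, as for Kifc1 at 3.66 ± 0.38, 4.08 ± 0.55 and 4.70 ± 0.63 FPKM in the water, low mDP and medium mDP groups. Those most like Slc23a4 were Dda1 (r = 0.837), Cep152 (r = 0.772), Ada (r = 0.76), Mtfr2 (r = 0.755) and Barx2 (r = 0.746). The r values of both lists are the highest picked from all these genes, and were neither tested nor recomputed with mice left out. Ada and the homeobox factor Barx2 had lower means with PAC, at 6.72 ± 2.98, 2.99 ± 1.70 and 2.24 ± 1.36 FPKM for Barx2. From water to medium mDP mice the mean went from 1.05 to 1.39 FPKM for Mtfr2, from 21.9 to 21.7 FPKM for Dda1 and from 1.39 to 1.46 FPKM for Cep152. Slc23a4 itself ranked 259 among the genes most like Slc28a2, and the r of the paralogs with Slc28a2 was -0.423 for Slc28a1, 0.47 for Slc28a3, 0.144 for Slc29a1, -0.057 for Slc29a2 and -0.687 for Slc29a3.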

How the data were processed

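The authors extracted RNA from ileal tissue, sequenced paired-end libraries on a BGISEQ-500 instrument, cleaned the reads with SOAPnuke and mapped them to mouse mm10. Their methods name Bowtie2 and NOIseq, whereas the submitters' processing notes name HISAT and DESeq2. Each deposited file holds, per gene of 1 mouse, an expected count and FPKM computed by the authors with a transcript length (unit other). Genes not listed in a file were taken as 0. Coordinates are from GENCODE M21 on GRCm38, the assembly of mm10, and 17716 of 17752 gene IDs matched RefSeq's table.

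Expected counts were rounded and 14386 genes passing filterByExpr were fitted over 15 mice with edgeR 4.0.16 (TMM, quasi-likelihood, Benjamini-Hochberg over all genes, called under 0.05). On data simulated from these counts, 98 genes were changed 2-fold and 102 were changed 4-fold. The fit called 81.6% and 97.1% of them for medium mDP PAC against water (14386 genes). The real data had 2 called genes, so the adjusted threshold was stricter there and these shares do not carry over to genes not called. Paralogs were also compared by two-sided exact permutation of log2(FPKM + 0.1), and relations within groups used 100000 shuffles. Marker scores average log2(FPKM + 0.1) over a list, after centring each gene on its 15-mouse mean. Named genes were the 7 members, the Slc23 family, the copy of Slc28a2, the 3 genes of lowest p in each pathway list and the 5 genes most like Slc28a2 or Slc23a4. Members and lists were chosen with earlier results of these data known. Alternatives were upper-quartile scaling, DESeq2 1.42.0, limma 3.58.1 on FPKM, no filter, 2 groups only, a replicate block, a robust fit, another pseudocount and leaving out each mouse. Depth is similar in all mice, and a gene near 1 FPKM, such as Slc29a2, rests on 33 to 51 counts.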

Additional observations from a re-analysis of the deposited data

Results flagged for a closer look

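Slc28a2 in water replicate 5, at 65.65 FPKM, stood apart from the other 4 water mice, which lay between 48.69 and 52.34 FPKM. Its gap to the next mouse was 0.785 of the range of the group, above Dixon's critical value of 0.71 for 5 values. This was the single flag in 21 groups of 5 mice examined, and chance flags about 1 group in 20. The same mouse also had the highest Slc23a4 and Slc28a1 of the 15 mice, at 15.38 and 5.43 FPKM. Without it, the log2 difference of Slc28a2 between medium mDP PAC and water was -1.27.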

How the results depend on the processing

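Slc28a2 and Slc23a4 kept their sign in all 3 comparisons under every alternative run. They were chosen by medium mDP PAC against water in these mice, and the other comparisons share groups with it, so this adds no support. Called genes for medium mDP PAC against water numbered 2 in edgeR, 167 in DESeq2, 9 in limma on log2(FPKM + 0.1), 4 with only the 2 groups, and 2 to 11 without 1 mouse each (11 without medium mDP replicate 2, 4 without water replicate 2). For low mDP PAC against water they numbered 0, 2 in DESeq2, and 0 to 1 without 1 mouse each (1 without low mDP replicate 2). Before adjustment, 628 genes were higher and 1500 lower than water with medium mDP PAC at a p under 0.05, against 1505 and 816 with upper-quartile scaling, 885 and 1261 in DESeq2, and 2269 and 528 in limma on log2(FPKM + 0.1), where the median log2 difference of all genes was 0.09. Without 1 mouse each, genes at an unadjusted p under 0.05 by edgeR numbered 1524 to 2456 for medium mDP PAC against water. They numbered 293 to 804 for low mDP PAC against water and 264 to 986 between the PAC groups. Relative to the enterocyte markers, added after seeing the data, Slc28a2 was at -0.91 and Slc23a4 at -0.60 (-0.76 without medium mDP replicate 3) with medium mDP PAC, and Slc23a4 at -0.33 with low mDP PAC. The causes were not tested.

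Some differences turned sign. Slc29a3 was at 0.00408 in limma with medium mDP PAC, and at 0.00876 with upper-quartile scaling and 0.0307 in limma with low mDP PAC. Relative to the enterocyte markers, Slc28a1 between the PAC groups was at 0.0433 (0.117 without medium mDP replicate 3), Slc28a3 with low mDP PAC at 0.0384, and Slc29a3 between the PAC groups at 0.13 (0.00299), with medium mDP PAC at 0.33 and with low mDP PAC at 0.20, against -0.09 and -0.02 in edgeR. Without 1 mouse each, Slc28a1 between the PAC groups ran from -0.52 to 0.0507, Slc29a1 with low mDP PAC from -0.0696 to 0.0596, Slc29a2 from -0.0395 to 0.129 with low mDP PAC and -0.0423 to 0.121 between the PAC groups, and Slc29a3 with low mDP PAC from -0.059 to 0.00755.

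The r of Slc28a2 with distal ileum genes was 0.063 on edgeR log2 CPM and 0.247 without the 2 farthest mice, and with villus tip genes -0.201 without them. For Slc23a4 these were 0.00891 and -0.0921 without them. Without 1 mouse each, r of Slc28a2 ran from -0.14 to 0.257 (distal ileum), -0.148 to 0.266 (villus tip) and -0.255 to 0.0275 (smooth muscle), and r of Slc23a4 from -0.036 to 0.421 (upper small intestine), -0.4 to 0.107 (distal ileum) and -0.469 to 0.11 (smooth muscle).

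Deviations of same-numbered mice had a mean r of 0.149 (water and medium mDP), 0.124 (water and low mDP) and -0.123 (PAC groups). Other pairs of mice had -0.038, -0.031 and 0.032 in the same order. Same-numbered pairs ran from -0.307 to 0.445, and whether a shared number means more than a label was not tested. With a replicate block the counts of called genes were 2, 0 and 0, Slc28a2 stood at -1.34 and Slc23a4 at -1.05 with medium mDP PAC, and the block changed no call. Depth limits Slc28a1, at as few as 11 counts in a mouse, and Slc29a2, at 33 to 51.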
